A study of Mus musculus with 15 samples.

Results

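A set of 10 genes that mark the extraembryonic lineages was followed by RNA-seq in mouse embryonic stem cells (ESC) with and without Hmga1. They were chosen by gene symbol among the 21662 genes of the deposited count tables, and all 10 were found: 6 primitive endoderm genes (Gata4, Gata6, Sox17, Sox7, Dab2 and Lama1), 2 transcription factors of the trophoblast (Cdx2 and Elf5) and 2 keratins of simple epithelia (Krt8 and Krt18). The study asked what the loss of Hmga1, an abundant chromatin protein that binds the minor groove of AT-rich DNA, does to transcription. Its first experiment (the KO experiment) held 3 samples of the parental wild type line (WT a, b and c), 2 samples of a KO line in which Cas9 had shifted the reading frame of Hmga1, and 2 samples each of KO cells that carried biotin-tagged Hmga1 or Hmga2 cDNA (the Hmga1 and Hmga2 add-backs), driven by the CAG promoter from a defined genomic site. The second (the full-deletion experiment) held 3 further WT samples and 3 samples of a line from which the coding sequence of Hmga1 had been removed. For that line, 2 guides in the untranslated regions were added to the approach used for the KO line.

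All groups were undifferentiated ESC of a 129Sv-C57Bl/6 background, kept in serum with LIF, and none was treated. The KO and full-deletion lines were each a single clone, so the p-values below measure the spread between samples of a line, which may be partly technical. The paper took RNA from more than 1 independent culture, collected on different days. The sample titles do not say which samples share a culture. Samples of the KO experiment that share a letter were made into libraries on 1 day and run on 1 flow cell, and are called a batch here, with WT c alone in its batch. Counts on genes summed to between 13465399 and 34952136 per sample in the KO experiment, with batch a deeper than batch b in each of the 4 genotypes, and to between 14832310 and 21708492 in the full-deletion experiment. WT b of the full-deletion experiment stood apart from the other 5 samples there, with a normalization factor of 0.752 against 0.986 to 1.116. The targeted gene, Hmga1, stood at 221 to 464 CPM (counts scaled to one TMM-normalized library size) in WT, 96.1 and 217 CPM in KO, and 10.9 to 12.3 CPM in the full deletion against 310.4 to 357 CPM in its WT, with a log2 fold change of -1.29 ± 0.17 in KO (edgeR adjusted p = 0.0534) and -4.86 ± 0.13 in the full deletion (adjusted p = 1.1e-05). In the libraries labelled Hmga1 add-back it was at 184 and 123 CPM, not above the KO range, so that the counts on this gene do not check that label. By Western blot, the paper reported no Hmga1 protein in KO and an amount comparable to WT in the Hmga1 add-back. It described the remaining KO transcript as a shorter isoform. Hmga2 was at 249 and 222 CPM in the Hmga2 add-back and between 12.8 and 23.8 CPM in every other sample.

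Primitive endoderm is one of the first lineages set aside in the mouse blastocyst. It arises beside the pluripotent epiblast under FGF signalling and gives rise to the yolk sac endoderm, and the GATA factors Gata6 and Gata4 and the SOX factors Sox17 and Sox7 drive its gene programme. Serum cultures of ESC are known to hold some cells that have entered this programme. The trophoblast is the outer layer of the blastocyst that forms the placenta, with Cdx2 among its earliest regulators and Elf5 as a factor that keeps trophoblast stem cells. Krt8 and Krt18 pair into the keratin filaments of simple epithelia, the trophoblast and the extraembryonic endoderm among them.

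The genes lie on 7 mouse chromosomes of the mm9 assembly (NCBIM37). Gata4 (chr14:63817759-63890529, minus strand) and Sox7 (chr14:64562511-64569569, plus strand) are 671981 bases apart. Krt8 (chr15:101827142-101834773, minus) and Krt18 (chr15:101858647-101862457, plus) face away from each other across 23873 bases. The others are Gata6, Sox17 (chr1:4481009-4486494, minus), Dab2 (chr15:6249788-6390712, plus), Lama1 (chr17:68046605-68171985, plus), Cdx2 (chr5:148112381-148118846, minus) and Elf5 (chr2:103251845-103291146, plus). Because Hmga1 binds AT-rich DNA, the base composition of the gene spans was computed. The members ranged from 46.0% AT in Cdx2 to 58.8% AT in Dab2, with a median of 51.9%, against a median of 53.6% (quartiles 49.2% and 57.5%) over the 12599 tested genes that matched the annotation. Only Dab2 was above the upper quartile, while Cdx2, Krt8 and Krt18 were below the lower one.

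RefSeq promoter windows (GRCm38.p6, 250 bases before to 50 after the start) were at hand for Cdx2, Elf5, Dab2, Krt8 and Krt18, in 7 windows. They were searched on both strands for the words AGATAA and AGATAG, or the same with a T in place of the first A, forms of the motif of GATA factors, which 29.8% of all 32851 promoter windows hold, and for the word ACAATGG, or the same ending in AG, forms of the SOX motif, which 5.95% hold. The words of one motif do not overlap those of the other. The downstream window of Dab2 and that of Elf5 held no word of either motif. The Krt8 window and the upstream windows of Dab2 and Elf5 held a GATA word, and the upstream Elf5 window also held a SOX word. The stretches below show the first GATA word of each, in capitals, on the strand of the gene, because Gata4 and Gata6 are members of the same set.
Dab2, chr15:6299598-6299627, plus strand: tgatttttcttcTGATAAcaggaataggag
Krt8, chr15:102004563-102004592, minus strand: aggagggcaggAGATAAgacagcttaggtc
Elf5, chr2:103411868-103411897, plus strand: taaccctctggcTGATAGctggccattgtg
The words begin 179 bases before the upstream start of Dab2, 239 before the start of Krt8 and 218 before the upstream start of Elf5. Which start is used in these cells was not tested. They are matches of letters and were not tested for binding.

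Per length, the members spanned a wide range in WT of the KO experiment. Lama1, which encodes the alpha chain of the laminin of early basement membranes, was at 23.8 RPKM (counts per kilobase of exons, scaled like CPM), followed by Krt18 at 10.4, Dab2 at 5.18, Krt8 at 4.21, Gata4 at 2.64 and Sox7 at 2.14 RPKM. Sox17 at 1.30 and Gata6 at 1.16 RPKM were lower still, and Cdx2 at 0.269 and Elf5 at 0.0316 RPKM were lowest. A gene was tested where its mean count over the samples of an experiment was at least 10. In the KO experiment 8 of the 10 members passed, all but Cdx2 and Elf5, and in the full-deletion experiment 7 passed, all but these and Gata6.

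**Figure D1:**
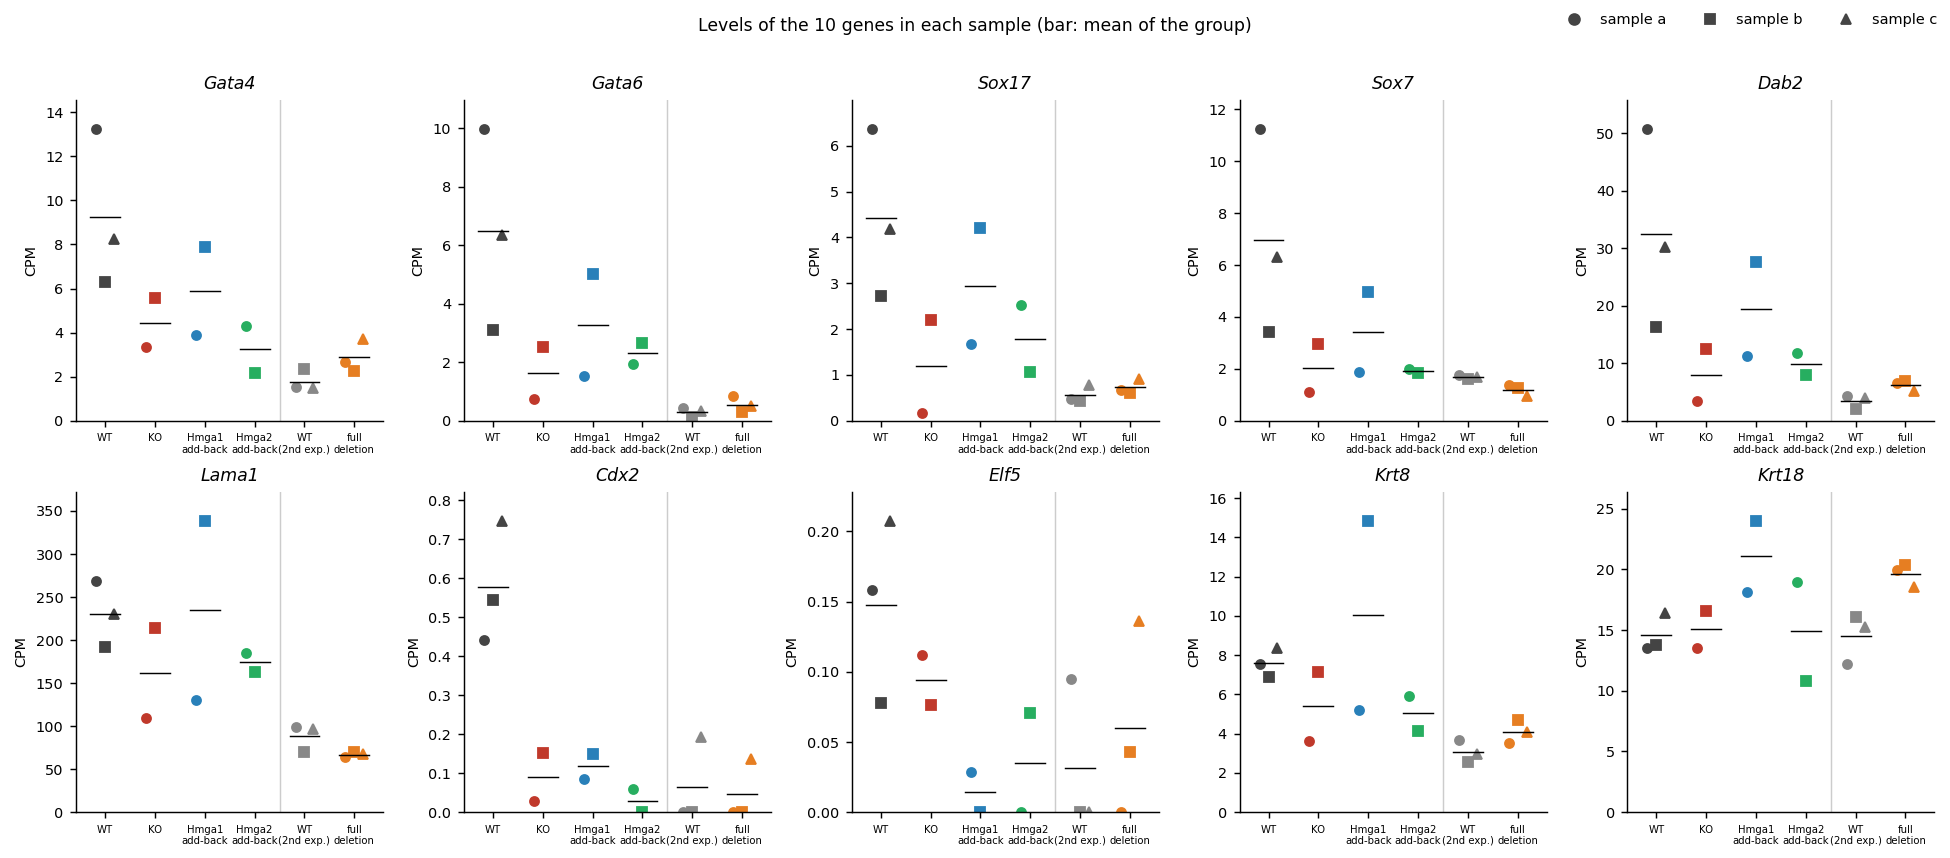
Level of each of the 10 genes in CPM (y axes from 0, each gene with its own scale) in each sample of the 6 groups. Circles, squares and triangles are samples a, b and c, black bars are group means, and the grey line divides the KO experiment (left) from the full-deletion experiment (right). WT a is the highest sample for Gata4, Gata6, Sox17, Sox7 and Dab2, and KO a is the lowest of the KO experiment for Gata6, Sox17, Sox7, Dab2, Lama1 and Krt8.

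The 4 transcription factors of primitive endoderm and Dab2 were lower in both KO samples than in all 3 WT samples, but the differences between samples of one line were so wide that none passed the test. The spread between WT samples alone was over 2-fold for each of the 5 genes. KO a was far below WT a, while KO b was close to WT b.

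Gata6, the GATA factor that starts the primitive endoderm programme, was at 9.96, 3.10 and 6.35 CPM in WT a, b and c and at 0.730 and 2.51 CPM in KO a and b. It was at 1.52 and 5.02 CPM in the Hmga1 add-back and at 1.93 and 2.68 CPM in the Hmga2 add-back. In batch b the 4 genotypes lay between 2.51 and 5.02 CPM, whereas in batch a WT was more than 5 times any other sample. Gata4, the GATA factor that acts with Gata6 and maintains the programme, was at 13.2, 6.28 and 8.26 CPM in WT and at 3.34 and 5.55 CPM in KO. Its add-back samples lay at 3.91 and 7.87 CPM (Hmga1) and 4.29 and 2.18 CPM (Hmga2). Here the lowest sample was Hmga2 add-back b and not KO a.

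Sox17, needed for the maturation of primitive endoderm, had the widest range of the tested members. It was at 6.36, 2.72 and 4.19 CPM in WT, at 0.168 and 2.20 CPM in KO, at 1.67 and 4.199 CPM in the Hmga1 add-back and at 2.52 and 1.06 CPM in the Hmga2 add-back. The value of KO a rests on 6 counts, and WT a was 37.8 times as high. Sox7, a close relative of Sox17 expressed in the parietal endoderm, was at 11.2, 3.41 and 6.31 CPM in WT and at 1.12 and 2.96 CPM in KO. The Hmga1 add-back was at 1.90 and 4.95 CPM and the Hmga2 add-back at 1.98 and 1.83 CPM. For Sox7 the Hmga2 add-back was the tightest group of the experiment, and its 2 samples lay between those of KO.

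Dab2, an endocytic adaptor that positions the endoderm cells at the surface, was the most abundant of the 5 genes per length. It was at 50.6, 16.4 and 30.1 CPM in WT and at 3.42 and 12.4 CPM in KO. The Hmga1 add-back was at 11.2 and 27.5 CPM and the Hmga2 add-back at 11.8 and 8.03 CPM. By mean ± SD, Dab2 ran from 32.4 ± 17.2 CPM in WT (n = 3) over 19.4 ± 11.5 in the Hmga1 add-back, 9.89 ± 2.64 in the Hmga2 add-back and 7.91 ± 6.34 in KO (n = 2 each). Neighbours in this order differed by less than their spread. Both KO samples were below all WT samples, an order that 10.5% of all genes had. In these bulk samples, fewer cells of the primitive endoderm and less RNA per cell cannot be told apart.

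Lama1 was at 269, 191 and 229.9 CPM in WT and at 109 and 214 CPM in KO. It was at 131 and 339 CPM in the Hmga1 add-back and at 185 and 163 CPM in the Hmga2 add-back. Its KO and WT samples overlapped, and the highest sample of the experiment was an add-back and not WT a.

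Against WT, in a model that includes batch, the log2 fold change in KO was -2.39 ± 0.77 (SE) for Gata6, -2.42 ± 1.005 for Sox17, -2.06 ± 0.71 for Sox7, -2.30 ± 0.75 for Dab2 and -1.19 ± 0.51 for Gata4. The adjusted p from the quasi-likelihood test of edgeR was 0.296, 0.382, 0.312, 0.298 and 0.393, in the same order. Lama1 changed by -0.62 ± 0.40 (edgeR adjusted p = 0.558). A gene counted as called when its adjusted p was under 0.01 and it differed at least 2-fold. On that rule 0 of the 8 tested members were called, against 0.0216% of all 13912 genes (3 genes). At an adjusted p under 0.05 with no minimum fold, again 0 members passed, against 0.0647% of all genes. Unadjusted, 5 of the 8 had an edgeR p under 0.05 (Gata4, Gata6, Sox17, Sox7 and Dab2), against 1747 of all 13912 genes. Both the Wald test of DESeq2 and limma-trend called 0 members on the main rule. At the lenient threshold DESeq2 passed Gata6 (adjusted p = 0.0274), 1 of the 8 members, along with 1.43% of all genes. The median over the 8 members was -1.63 on the log2 scale, against -0.0082 over all genes tested. KO and WT samples did not overlap for 5 of the 8 members, all of them lower in KO, whereas 10.5% of all genes had every KO sample below every WT sample.

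The call depended on which WT sample of batches a and b was present. WT c, alone in its batch, hardly entered this comparison in a model with batch, and without it 3 genes were again called. Leaving out WT b thus left WT a as the only WT sample in a batch with KO, and leaving out WT a left WT b. Without WT b, the lowest WT sample for all 5 genes, Gata6 was called at -3.51 on the log2 scale (edgeR adjusted p = 0.0079, within a range from 0.0079 to 0.980 over its 17 alternatives), and 0.443% of all genes (62 genes) were called. Without WT a, the highest, the changes shrank to -0.83 for Dab2 and -0.52 for Gata6.

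**Figure D2:**
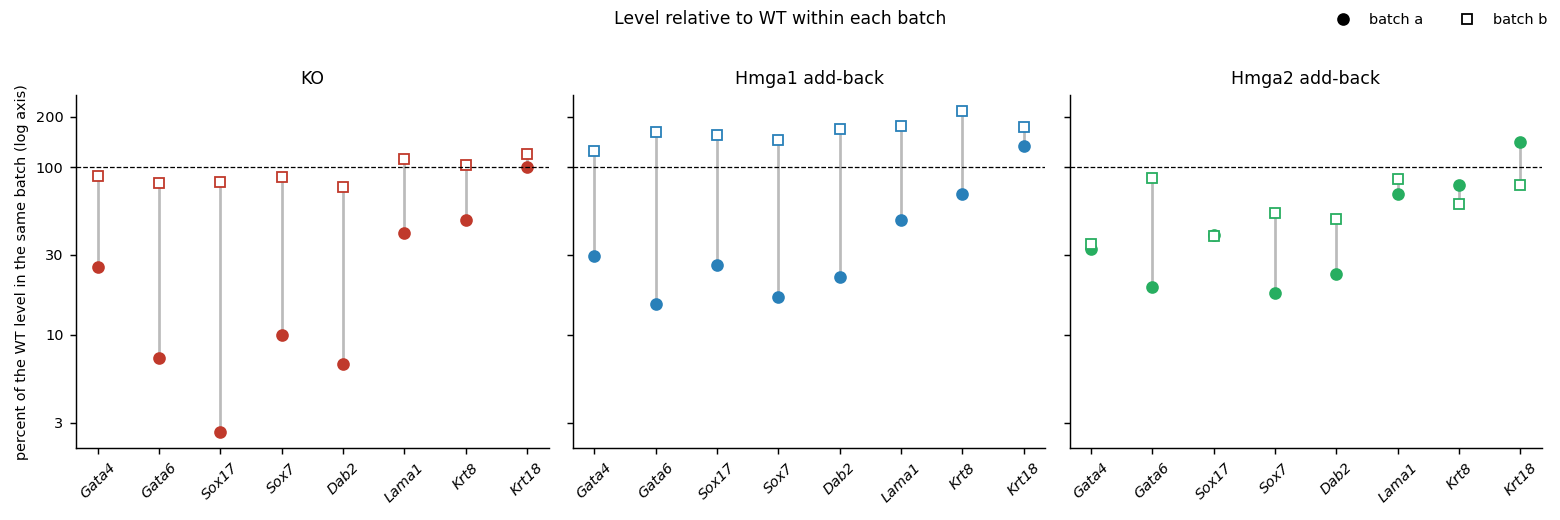
Level of each tested gene in KO and in both add-backs as a percentage of the WT sample of the same batch (log axis), with filled circles for batch a, open squares for batch b and a dashed line at 100%. For Sox17, KO was at 2.65% in batch a and at 81.2% in batch b.

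Within batches, KO was lower than WT in both for the 5 genes, by very unequal amounts. In batch a, KO reached 2.65% of the WT level for Sox17, 6.76% for Dab2, 7.32% for Gata6, 9.997% for Sox7 and 25.3% for Gata4. In batch b the same genes stood at 81.2%, 75.7%, 80.8%, 86.8% and 88.3% of WT. Lama1 was at 40.6% in batch a and 111.7% in batch b, so that its direction was not shared by the batches. Of the 8 members 5 were below WT in both batches, against 32.1% of all genes. Both batches have 1 sample of each genotype, so the difference between them was not tested.

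The add-backs were compared with KO for a return of these genes. In the libraries labelled Hmga1 add-back, a label that the Hmga1 counts do not check, all 8 tested members were above KO in both batches, Dab2 at 327% of KO in batch a and 222% in batch b, and Gata6 at 209% and 200.3%. None passed, since all 8 had an edgeR adjusted p of 0.9999. An unadjusted p under 0.05 was found for 0 members, against 390 of all 13912 genes. DESeq2 and limma-trend called 0 members, and edgeR called 0% of all genes at either threshold. Over all genes, 24.1% were above KO in both batches and 53.9% had opposite signs. When only KO and the Hmga1 add-back entered the fit, Dab2 passed the lenient threshold (1.43 on the log2 scale, edgeR adjusted p = 0.0141) along with 0.115% of all genes, and 0 members were called. There 7 of the 8 members, all but Gata4, had an unadjusted p under 0.05, against 642 of all 13920 genes. With so few samples in that fit, the spread of a gene was estimated largely from other genes. Over the 17 alternatives the sign was not kept for Gata4, Lama1 and Sox7. The median over the members was 0.81 on the log2 scale, against 0.0058 over all genes.

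The Hmga2 add-back went in opposite directions in the 2 batches. Dab2 was at 344% of KO in batch a and at 64.8% in batch b, and Gata4 at 129% and 39.3%. Of the 8 members 7 were above KO in batch a and below it in batch b, the exception being Gata6 at 264% and 107%, and 46.4% of all genes also had opposite signs. By edgeR 0 of 8 members were called, with adjusted p from 0.878 to 0.995, against 0.00719% of all genes called and 0.0144% at the lenient threshold. At an unadjusted p under 0.05 there were 0 members, against 708 of all 13912 genes. DESeq2 and limma-trend called 0 members too.

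Against WT, the Hmga1 add-back was lower in batch a and higher in batch b for 7 of the 8 members. Gata6 was at 15.3% of its WT level in a and 162% in b, Sox7 at 16.9% and 145%, Dab2 at 22.1% and 168%, and Lama1 at 48.6% and 177%. Opposite signs between batches occurred in 49.4% of all genes. Called were 0 of 8 members (edgeR adjusted p from 0.381 to 0.924, 0 by DESeq2 and limma-trend), against 0.0144% of all genes and 0.0431% at the lenient threshold. At an unadjusted p under 0.05 there were 0 members, against 1844 of all 13912 genes.

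The Hmga2 add-back was below WT in both batches for 7 of the 8 members, all but Krt18. Gata4 was at 32.5% and 34.7% of WT in batches a and b, Sox17 at 39.6% and 38.9%, Dab2 at 23.2% and 49.0%, and Sox7 at 17.7% and 53.6%. Over all genes, 31.9% were below WT in both batches. In the fit of all 9 samples Dab2 differed by -1.79 ± 0.69 (edgeR adjusted p = 0.253) and Gata4 by -1.56 ± 0.51 (adjusted p = 0.206). Of 8 members 0 were called, also by DESeq2 and limma-trend, against 0.0647% of all genes called by edgeR and 0.165% at the lenient threshold. At an unadjusted edgeR p under 0.05 there were 4 members (Dab2, Gata4, Gata6 and Sox7), against 2352 of all 13912 genes. DESeq2 passed Gata4 (adjusted p = 0.0479) and Sox7 (adjusted p = 0.0477) at the lenient threshold, with 2.39% of all genes. Leaving out WT a, the highest sample, left WT b as the only WT sample in a batch with the Hmga2 add-back. The fitted difference was then -0.12 for Dab2, -0.65 for Gata4 and 0.27 for Gata6, the last with its direction turned. When only WT and the Hmga2 add-back entered the fit, Dab2 (-1.61, edgeR adjusted p = 7.2e-04) and Gata4 (-1.57, adjusted p = 0.0077) were called, along with 0.721% of all genes (100 genes). With so few samples in that fit, the spread of a gene was estimated largely from other genes. Over the 17 alternatives the adjusted p ran from 7.2e-04 to 0.984 for Dab2 and from 0.0077 to 0.949 for Gata4.

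The batches themselves were compared at equal genotype. Between batch b and batch a, 0 of the 8 members were called (edgeR adjusted p from 0.263 to 0.972, 0 by DESeq2 and limma-trend), whereas 2.34% of all genes were called and 35.6% passed the lenient threshold. At an unadjusted p under 0.05 there were 0 members, against 6533 of all 13912 genes. Beneath this lay moves in opposite directions. From batch a to batch b, Dab2 changed by -1.63 on the log2 scale in WT and -0.55 in the Hmga2 add-back but by 1.86 in KO and 1.30 in the Hmga1 add-back. Sox17 changed by -1.23 and -1.25 in WT and the Hmga2 add-back, and by 3.71 and 1.33 in KO and the Hmga1 add-back.

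Krt8 and Krt18 did not follow the same course. Krt8 was at 7.53, 6.91 and 8.38 CPM in WT, at 3.65 and 7.15 CPM in KO, at 5.23 and 14.8 CPM in the Hmga1 add-back and at 5.92 and 4.15 CPM in the Hmga2 add-back. Its WT samples were close together, unlike those of the 4 transcription factors, and its extremes were KO a and Hmga1 add-back b, as for Lama1. From batch a to batch b, Krt8 changed by -0.12 (WT) and -0.51 (Hmga2 add-back) on the log2 scale. It rose by 0.97 (KO) and 1.51 (Hmga1 add-back). Krt8 shared these signs with Gata4, Sox17, Sox7, Dab2 and Lama1, but not with Gata6 or Krt18. Krt18, its filament partner, was at 13.5, 13.8 and 16.4 CPM in WT, at 13.6 and 16.6 CPM in KO, at 18.1 and 24.0 CPM in the Hmga1 add-back and at 19.0 and 10.8 CPM in the Hmga2 add-back. WT and KO overlapped for both keratins. KO against WT gave -0.54 ± 0.45 for Krt8 (edgeR adjusted p = 0.642) and 0.13 ± 0.27 for Krt18 (adjusted p = 0.881). Within batches, Krt8 in KO was at 48.5% of WT in a and 103% in b, and Krt18 at 100.1% and 120.0%. Reads with several equally good alignments were placed at random, and mouse has a Krt8 pseudogene in RefSeq, so the level of Krt8 is uncertain to that extent.

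Cdx2 and Elf5 had low counts everywhere, although Cdx2 was detected in every WT sample of the KO experiment. Cdx2 had 14, 7 and 18 counts in WT a, b and c, 1 and 2 in KO, 3 and 2 in the Hmga1 add-back, and 2 and 0 in the Hmga2 add-back. All WT samples, at 0.443, 0.543 and 0.747 CPM, were above all samples of the 3 KO-derived groups, at 0.152 CPM or less. Summed over samples and scaled by library size, Cdx2 in KO was 0.108 of WT (95% exact interval 0.0214 to 0.340, from 3 and 39 counts), in the Hmga1 add-back 0.183 (0.0562 to 0.464) and in the Hmga2 add-back 0.0734 (0.00858 to 0.283). These intervals cover counting error only. In an edgeR fit without the filter on low counts, the change of Cdx2 in KO was -2.77 ± 0.98 (adjusted p = 0.364).

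Elf5 had 5, 1 and 5 counts in WT, 4 and 1 in KO, 1 and 0 in the Hmga1 add-back and 0 and 1 in the Hmga2 add-back. Its ratio of KO to WT was 0.639 (95% exact interval 0.174 to 2.00), which does not separate the lines at this depth. For the Hmga1 and Hmga2 add-backs the ratio to WT was 0.130 in both, from 1 count against 11, with 95% exact intervals of 0.00301 to 0.891 and 0.00302 to 0.895. These intervals too cover counting error only. In the edgeR fit without the filter, the changes were -2.41 ± 1.69 (adjusted p = 0.668) and -2.31 ± 1.69 (adjusted p = 0.603), which do not separate the add-backs from WT.

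In the full-deletion experiment the primitive endoderm genes were low in WT already, and the direction of their small differences varied from gene to gene. Gata4 was at 1.52, 2.33 and 1.49 CPM in WT and 2.66, 2.25 and 3.73 CPM in the full deletion. Dab2 was at 4.32, 2.08 and 3.998 CPM in WT and 6.59, 6.95 and 5.09 CPM in the full deletion. Every full-deletion sample was above every WT sample for Dab2, but not for Gata4, where WT b was above full deletion b.

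Sox7 was at 1.76, 1.59 and 1.69 CPM in WT and 1.39, 1.25 and 0.954 CPM in the full deletion. Lama1 was at 98.7, 69.7 and 97.02 CPM in WT and 63.7, 69.4 and 68.0 CPM in the full deletion. Both were lower in every full-deletion sample, although Lama1 in WT b lay within 1 CPM of full deletion b. Sox17 ranged from 0.429 to 0.771 CPM in WT and from 0.605 to 0.909 CPM in the full deletion, with overlap. Gata6, below the filter, was at 0.427, 0.123 and 0.337 CPM in WT and 0.847, 0.302 and 0.500 CPM in the full deletion, from 2 to 14 counts a sample.

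Krt18 was at 12.2, 16.1 and 15.2 CPM in WT and 19.96, 20.3 and 18.5 CPM in the full deletion, and these groups did not overlap. Krt8 was at 3.70, 2.57 and 2.99 CPM in WT and 3.51, 4.71 and 4.09 CPM in the full deletion, with overlap in 1 sample of each. Cdx2 had 4 counts in WT and 3 in the full deletion, all in the samples c, a ratio of 0.707 (95% exact interval 0.104 to 4.18). Elf5 had 2 and 4 counts.

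The fitted log2 fold changes in the full deletion were 0.82 ± 0.28 for Dab2 (edgeR adjusted p = 0.0842), 0.71 ± 0.29 for Gata4 (0.123), 0.44 ± 0.14 for Krt18 (0.0724) and -0.40 ± 0.15 for Lama1 (0.0986). Krt8 changed by 0.41 ± 0.21, Sox17 by 0.37 ± 0.37 and Sox7 by -0.49 ± 0.25, with edgeR adjusted p from 0.179 to 0.480. Of the 7 tested members 0 were called, also by DESeq2 and limma-trend, against 0.0687% of all 13098 genes by edgeR. At an unadjusted edgeR p under 0.05 there were 4 members (Dab2, Gata4, Krt18 and Lama1), against 4843 of all 13098 genes. At the lenient threshold 0 members passed, against 8.25% of all genes. With DESeq2, Dab2 (adjusted p = 0.0378) and Lama1 (adjusted p = 0.0420) passed it, 2 of the 7, against 24.7% of all genes. Groups did not overlap for 2 of the 7 in the lower direction (Sox7 and Lama1) against 24.6% of all genes, and for 2 in the higher direction (Dab2 and Krt18) against 26.7%, so the members were close to the background.

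In the edgeR test with no sample left out, Krt18 was the only member to pass the lenient threshold. It did so after scaling by summed counts (0.73, edgeR adjusted p = 0.0429), where 664 of all 13098 genes passed. Otherwise, passing in edgeR depended on WT b, the sample that stood apart. Without it, Dab2 (0.57, edgeR adjusted p = 0.0140), Gata4 (0.93, 0.0115), Krt18 (0.52, 9.6e-04) and Lama1 (-0.54, 1.2e-06) passed the lenient threshold, 4 of the 7 members against 42.5% of all genes, and still 0 reached the main one. Over all alternatives the highest adjusted p of these 4 genes was between 0.217 (Krt18) and 0.642 (Lama1).

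**Figure D3:**
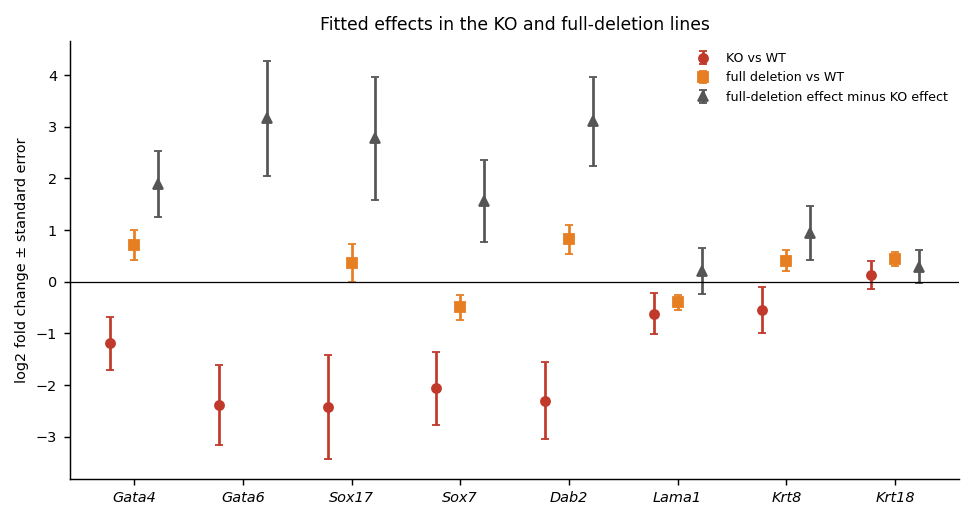
Fitted log2 fold changes with standard errors of the tested genes for KO against WT (circles), the full deletion against WT (squares) and the difference of these effects (triangles). Gata6 has no square because it did not pass the filter of the full-deletion experiment. The 4 transcription factors and Dab2 lie between -2.42 and -1.19 in KO, and the squares lie between -0.49 and 0.82.

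The effects of the 2 mutant lines were set against each other through the interaction in a model of all 15 samples. Gata6, whose mean count in the full-deletion experiment was 8.33, below the filter, passed here only through its counts in the KO experiment. All 8 members had a positive difference, that is, a higher or less negative change in the full deletion than in KO. It was 3.10 ± 0.86 for Dab2 (edgeR adjusted p = 0.168), 3.16 ± 1.12 for Gata6 (0.227), 2.78 ± 1.19 for Sox17 (0.257), 1.89 ± 0.64 for Gata4 (0.223) and 1.56 ± 0.80 for Sox7 (0.304). Krt8 (0.94 ± 0.52), Krt18 (0.29 ± 0.32) and Lama1 (0.21 ± 0.45) differed less, with edgeR adjusted p from 0.334 to 0.810. Called were 0 of 8, also by DESeq2 and limma-trend, against 0.0951% of all 13671 genes by edgeR and 0.307% at the lenient threshold. At an unadjusted edgeR p under 0.05 there were 4 members, against 2512 of all 13671 genes. The median over the members was 1.72 on the log2 scale, against 0.035 over all genes. Without WT a of the KO experiment the difference was 1.64 for Dab2, 1.29 for Gata6, -0.073 for Sox7 and -0.46 for Lama1, so that the direction of the last 2 turned.

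The WT levels of the 2 experiments, from tables normalized separately, are given side by side without a test. Mean levels were 9.25 ± 3.57 CPM (SD, n = 3) in WT of the KO experiment and 1.78 ± 0.48 CPM in WT of the full-deletion experiment for Gata4, 6.47 ± 3.43 and 0.296 ± 0.156 CPM for Gata6, 32.4 ± 17.2 and 3.47 ± 1.21 CPM for Dab2, and 230.2 ± 38.9 and 88.5 ± 16.3 CPM for Lama1. Of the 7 members tested in both, 6 were higher in every WT sample of the KO experiment, all but Krt18, against 36.4% of all genes. Krt18 was at 14.6 ± 1.60 and 14.5 ± 2.03 CPM.

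**Figure D4:**
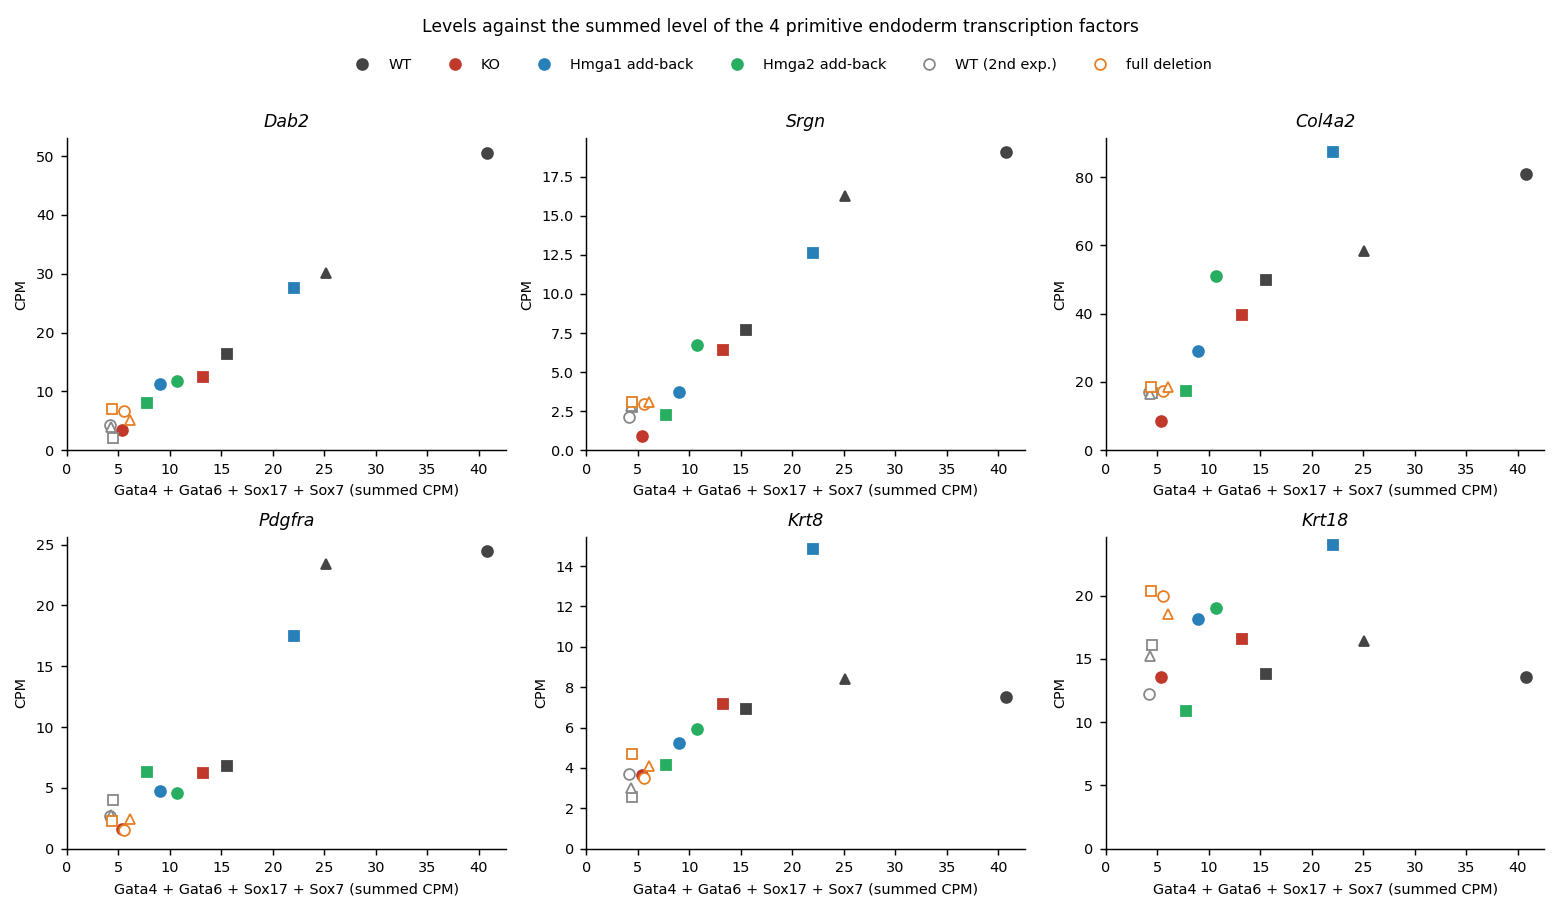
Level (y axes, CPM) of Dab2, Srgn, Col4a2, Pdgfra, Krt8 and Krt18 against the summed level of Gata4, Gata6, Sox17 and Sox7 (x axes, CPM) in all 15 samples. Filled symbols are the KO experiment and open symbols the full-deletion experiment, and circles, squares and triangles are samples a, b and c. The sum runs from 4.18 to 40.8 CPM, Dab2 is highest where the sum is highest, and Krt18 shows no such order.

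WT a was the highest sample for all 4 transcription factors and KO a the lowest for Gata6, Sox17 and Sox7, while Gata4 was lowest in Hmga2 add-back b. Their sum was 40.8, 15.5 and 25.1 CPM in WT a, b and c, 5.36 and 13.2 CPM in KO, 8.99 and 22.04 CPM in the Hmga1 add-back and 10.7 and 7.75 CPM in the Hmga2 add-back. It was between 4.18 and 4.47 CPM in WT and between 4.41 and 6.09 CPM in the full deletion of the second experiment, from a table normalized separately, and KO a lay within that range. Within the KO experiment the order of the samples by this sum was, from the top, WT a, WT c, Hmga1 add-back b, WT b, KO b, Hmga2 add-back a, Hmga1 add-back a, Hmga2 add-back b and KO a. Dab2 had the same order in all 9 samples.

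Across all 15 samples, centred within each experiment, the genes most like a member were looked up among 10838 genes whose counts averaged 50 or more in both experiments. This was done for the 7 members that passed the filter in both, and so not for Gata6, Cdx2 and Elf5. The correlations are descriptions over samples that share batches and lines. Sox17 was most like Srgn (r = 0.98), a proteoglycan core protein, Col4a2 (0.96), a chain of basement membrane collagen, and Dab2 (0.94). Dab2 was most like Srgn (0.92), Serpinh1 (0.91), a collagen chaperone, and Cachd1 (0.89). Gata4 was most like Serpinh1 (0.92), Srgn (0.85) and E2f6 (0.84). Sox7 was most like Med22 (0.92), the PDGF receptor gene Pdgfra (0.91) and Adgrl2 (0.91). Lama1 was most like Sparc (0.93), a matrix glycoprotein, Dcun1d2 (0.86) and Cubn (0.86). Krt8 was most like Col4a1 (0.87), Amot (0.83) and Col4a2 (0.82). Krt18 had no gene above 0.75, with Etfa at 0.74, Atf3 at 0.71 and Cryz at 0.70.

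A list of 26 further primitive endoderm genes, written with earlier results of these data known, was read in the same way. Srgn, Serpinh1, Pdgfra, Col4a1, Col4a2, Sparc and Cubn are on it and were also among the genes most like the members. The direction of the list is therefore not independent of theirs. In KO against WT, 22 were tested, 18 had a negative fold change and 0 were called at either threshold, with a median of -0.86 on the log2 scale against -0.0082 over all genes. Col4a1, the partner chain of Col4a2, was at 122, 105 and 112 CPM in WT, 14.9 and 88.7 CPM in KO, 44.97 and 193 CPM in the Hmga1 add-back and 75.5 and 35.3 CPM in the Hmga2 add-back. Cubn, a receptor of the absorptive yolk sac endoderm, was at 78.3, 51.9 and 48.9 CPM in WT and at 2.55 and 37.4 CPM in KO. Pdgfra was at 24.5, 6.83 and 23.4 CPM in WT and at 1.57 and 6.23 CPM in KO. For each of the 3, KO a was the lowest of the 9 samples. Genes of the later yolk sac were near 0, with Afp at 0.0776 CPM or less and Ttr at 1.05 CPM or less in every sample. Hnf4a, a regulator of the visceral endoderm named here after its values were seen, went the other way, with 4.32 to 6.91 CPM in WT and 10.6 and 11.9 CPM in KO (log2 fold change 0.83 ± 0.32, edgeR adjusted p = 0.363).

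In the full deletion, 18 of the 26 were tested and 0 were called. At the lenient threshold 2 passed, against 8.25% of all genes. P4ha2, a collagen prolyl hydroxylase, rose (0.90 ± 0.15, edgeR adjusted p = 0.0279) and the laminin chain gene Lamb1 fell (-0.47 ± 0.11, adjusted p = 0.0433). From batch a to batch b, Lrp2, an endocytic receptor, was the one gene of the list called (1.21 ± 0.16, edgeR adjusted p = 0.0020).

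Of 25 further trophoblast genes, 20 were tested in KO against WT and 0 were called at either threshold, with a median of 0.14. In the full deletion 18 were tested and 0 passed either threshold, with a median of 0.35 against 0.043 over all genes. Between batches, 18 of 20 had a lower fitted level in batch b, with a median of -0.43 against -0.026 over all genes. The lenient threshold was passed by 8 of the 20, next to 35.6% of all genes. Cldn4, a tight junction gene, was called (-1.08 ± 0.22, edgeR adjusted p = 0.0085), and the next smallest p was that of Tead4, a factor upstream of Cdx2 (-0.58 ± 0.15, adjusted p = 0.0190). The summed level of the list was 178 to 197 CPM in WT, 258 and 161 CPM in KO a and b, and 412 and 167 CPM in the Hmga2 add-back. Of its transcription factors, Tfap2c was at 45.3 to 166 CPM in every sample, Eomes was between 0.613 and 5.36 CPM, and Gata3 was at 0.623 CPM or less.

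The list of FGF signalling genes and of factors that oppose primitive endoderm held 17 genes, all tested. In KO against WT 0 passed either threshold, and the median was -0.024. In the full deletion 0 were called and 4 passed the lenient threshold, against 8.25% of all genes. Zfpm1, a cofactor of GATA factors, rose (1.08 ± 0.17, edgeR adjusted p = 0.0235), as did the MAP kinase phosphatase Dusp4 (0.97 ± 0.18, adjusted p = 0.0302), while Spry4, a feedback inhibitor of FGF signalling (-0.55 ± 0.09, adjusted p = 0.0250), and the ligand Fgf4 (-0.70 ± 0.12, adjusted p = 0.0279) fell. Dusp4 and Fgf4 were not among the 2 genes of the list with the smallest p, and Dusp4 was named after its values were seen. Between batches, Zfpm1 was called with -1.55 ± 0.19 in batch b (edgeR adjusted p = 0.0016), and the FGF receptor gene Fgfr1 fell by 0.68 on the log2 scale (SE 0.10, adjusted p = 0.0029). Nanog, which represses Gata6, was at 261, 188 and 157 CPM in WT and 273 and 201 CPM in KO.

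Markers of other cells were looked at in the same samples. The 15 pluripotency genes summed to 5484 to 9075 CPM in all 15 samples, and Pou5f1 was at 628 CPM or more in each, as the label of ESC implies. In the full deletion 2 of the 15 passed the lenient threshold, Fgf4 with the values above and Dppa3, a maternal chromatin factor, which rose (0.96 ± 0.17, edgeR adjusted p = 0.0293). Between batches Dppa5a rose (0.56 ± 0.083, edgeR adjusted p = 0.0027) and Nanog fell (-0.36 ± 0.080, adjusted p = 0.0108) from a to b. The 14 fibroblast markers, which would show feeder cells, summed to 12.2 to 19.04 CPM in WT and to 17.2 and 18.01 CPM in KO, with 7 of 14 above the filter. Of the defining ones, Postn was at 0.0633 CPM or less and Dcn and Lum at 0.166 CPM or less in every sample, while Thy1 was at 1.78 to 11.7 CPM. Col3a1 had 16, 0 and 18 counts in WT a, b and c and 0 in both KO samples, and WT a and c were also the WT samples with the higher levels of the 4 transcription factors and Dab2. Of the 7 tested fibroblast markers, 5 had a higher fitted level in KO than in WT and 2 a lower one. Their median was 0.44 on the log2 scale, against -0.0082 over all genes. Twist1, 1 of the 2 lower ones, differed by -1.92 ± 0.51 in KO (edgeR adjusted p = 0.210). The part of fibroblasts in the differences of the members was not tested. The 10 markers of definitive endoderm and mesendoderm, a lineage that also uses Gata4, Gata6 and Sox17, summed to 195 to 399.8 CPM in WT and to 362 CPM in both KO samples. Trh made up nearly all of this, at 182 to 390 CPM in WT, and Cer1 was at 0.233 CPM or less, T at 0.706 or less and Gsc at 0.460 or less in every sample. The 15 genes of simple epithelium summed to 1355 to 1561 CPM in WT and to 1621 and 1636 CPM in KO. Between batches, 2 of its 14 tested genes were called, Cldn4 as above and the related Cldn3 (-1.69 ± 0.33, edgeR adjusted p = 0.0071).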

How the data were processed

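The authors used QuasR with Bowtie to align strand-specific reads of rRNA-depleted total RNA to mm9, placed a read with several equally good alignments at random, and counted same-strand reads over the exons of UCSC known genes. The deposited values are raw counts per gene, beside the exonic bases of each gene, which the authors give as width and which were used here for RPKM. Genes whose counts averaged 10 or more were scaled by TMM and put through the quasi-likelihood test of edgeR (version 4.0.16, R 4.3.3). P-values were adjusted by Benjamini-Hochberg over every gene tested, and calls needed an adjusted p under 0.01 and at least 2-fold. Batch was a term of the model in the KO experiment and not in the full-deletion experiment, as in the study's methods. In the KO experiment the log2 difference of WT a and b correlated across genes with that of KO (r = 0.530) and those of the add-backs (0.385 for Hmga1 and 0.407 for Hmga2). A lenient rule took an adjusted p under 0.05 with no minimum fold.

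Alternatives were DESeq2 size factors, summed counts, no filter, a mean count of at least 50, DESeq2 1.42.0, limma-trend (limma 3.58.1), the batch term switched, only the groups compared, and leaving out each sample. The script was tested on simulated data. The members and lists were chosen with earlier results of these data known. Named were all 10 members, Hmga1, the genes of the lists that were called, the 2 smallest p of a list and comparison at an adjusted p under 0.05, and the 3 genes most like each member. Fgf4 is named under the pluripotency list. Hmga2, Hnf4a, Dusp4, Twist1 and the markers given by level only were named after their values were seen. Plots were drawn with matplotlib 3.10.9. Replicates differed by more than counting error in every group.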

Additional observations from a re-analysis of the deposited data

Results flagged for a closer look

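Because each batch of the KO experiment holds 1 sample of a genotype, a gene whose 2 samples of a genotype lay on opposite sides of the reference sample of their batch was set apart here. The values are the log2 difference in batch b minus that in batch a, and in every case the difference between the batches was not tested. The share of all genes with opposite signs was 46.4% for the Hmga2 add-back against KO, 37.9% for KO against WT, and 49.4% and 38.0% for the Hmga1 and Hmga2 add-backs against WT.

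For KO against WT, Lama1 (1.46) and Krt8 (1.09) were lower than WT in batch a and higher in batch b, 2 of 8 tested members. The 4 transcription factors and Dab2 were lower in both batches.

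For the Hmga1 add-back against WT, 7 of 8 members were lower in batch a and higher in batch b. The laminin gene Lama1 gave 1.86, the GATA factors Gata4 and Gata6 gave 2.08 and 3.41, the SOX factors Sox17 and Sox7 gave 2.56 and 3.10, Dab2 gave 2.93 and Krt8 gave 1.63. WT a was the highest of all 9 samples for 5 of these genes.

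For the Hmga2 add-back against KO, 7 of 8 members were higher in batch a and lower in batch b. Sox17, with 6 counts in KO a, gave -4.96, Dab2 gave -2.41, Gata4 gave -1.71, Sox7 gave -1.52, Krt8 gave -1.48, Lama1 gave -1.15 and Krt18 gave -1.10. KO a was the lowest of all 9 samples for 5 of these 7 genes. Against WT, Krt18 in the Hmga2 add-back was higher in batch a and lower in batch b (-0.84).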

How the results depend on the processing

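Over the 8 comparisons and their alternatives, the number of members called was 0 in the main fit and was 0 in 141 repeats and above 0 in 2. Of the refitted fold changes of KO against WT, the full deletion against WT and their difference, and of Dab2 and Gata4 in the Hmga2 add-back against WT, 425 kept their direction and their side of the threshold, 3 passed it and 5 changed sign. The exceptions among the counts were KO against WT, with a range from 0 to 1 when 1 sample was left out (1 without WT b, Gata6), and the Hmga2 add-back against WT, with 2 (Dab2 and Gata4) when only the groups compared were fitted. Leaving out 1 sample moved KO against WT from -1.18 to 0.050 for Lama1 (0.050 without WT a) and from -0.067 to 0.34 for Krt18 (-0.067 without KO b). It moved the full-deletion effect minus the KO effect from -0.073 to 2.58 for Sox7 (-0.073 without WT a) and from -0.46 to 0.77 for Lama1 (-0.46 without WT a and -0.16 without KO a). The cause was not tested. In the other comparisons the sign of the fold change was not kept over the alternatives for 3 of 8 members in the Hmga1 add-back and 8 of 8 in the Hmga2 add-back against KO, for 6 of 8 and 5 of 8 in the same add-backs against WT, and for 5 of 8 between batches.

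With the replicate block left out in the KO experiment, 0 members were called in each comparison, and KO against WT called 1 gene in place of 3 over all genes. In the full-deletion experiment the letters did not pair the samples (correlations of deviations 0.100, 0.111 and -0.057 for a, b and c), and with the replicate block 0 members were called and 4 genes in place of 9 over all genes. Over all genes the number called ranged from 0 to 76 for KO against WT and from 1 to 463 for the full deletion, the highest of both with DESeq2. Scaling by summed counts moved the median of all genes in the full deletion from 0.043 to 0.32 on the log2 scale, with 0 members called. Depth limits Cdx2 and Elf5 in both experiments, and these were left out of the main tests. It also limits Gata6 in the full-deletion experiment, where Gata6 entered only the joint model of both experiments.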
